A study of Homo sapiens with 4 samples.

Results

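Mycophenolic acid alone was set against guanosine alone in U87MG cells, a block of guanine nucleotide synthesis against a supply of the nucleoside from which cells can make guanine nucleotides by another route. The comparison takes 2 of the study's 4 arrays and every gene that a probe set with 1 gene symbol names. Of a gene's probe sets the one with the highest mean over the 4 arrays was kept, and a probe set prone to cross-hybridisation (a name ending in _x_at) only where the gene had no other. Of 18132 genes measured in this way, 10953 had a signal at or above the dim-gene floor of 63.0, the median of all probe set values, on the MPA or the guanosine array, and these are the genes compared. The other 7179 genes lay below that floor on both arrays. Differences are log2 of the MPA signal minus log2 of the guanosine signal, so a positive difference is a gene higher with MPA. Values given for a gene on an array are its signal on the linear RMA scale, and folds are ratios of such signals.

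U87MG cells are a long-established line derived from a human glioblastoma, and the work around them asks how IMP dehydrogenase 2 bears on the nucleolus of glioblastoma. Cells were given 10 µM mycophenolic acid (MPA) alone, 100 µM guanosine alone, both compounds at those doses, or DMSO as the control. Total RNA was taken after 24 h and hybridised to PrimeView 3′ expression arrays. There was 1 array for each condition, so the spread between cultures was not measured, no difference here has a test or a p-value, and every fold describes a pair of arrays of 1 cell line.

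IMP dehydrogenase makes xanthosine monophosphate from IMP, the rate-limiting step on the way to GMP and GTP, and MPA inhibits it. Guanosine enters cells through nucleoside transporters, is cleaved to guanine by purine nucleoside phosphorylase and is joined to a ribose phosphate by HPRT1, which gives GMP without IMP dehydrogenase. Guanine nucleotides feed RNA and DNA synthesis, and synthesis of ribosomal RNA by RNA polymerase I in the nucleolus is among their largest uses. When ribosome assembly is disturbed, free ribosomal proteins bind MDM2, which otherwise marks p53 for destruction.

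The arrays had median signals of 64.5 with MPA, 62.5 with guanosine, 61.8 with both compounds and 63.0 in the DMSO control. Over all probe sets the log2 values correlated at r = 0.989 between the MPA and guanosine arrays, 0.997 between guanosine and control, and 0.998 between guanosine and both compounds. All 11 markers of mesenchymal glioma cells on the array were above the floor, among them VIM at 18322 on the MPA array, against 8 of 10 leukocyte, 4 of 10 endothelial and pericyte, 3 of 9 epithelial, 3 of 8 astrocyte, and 3 of 12 neuronal and oligodendrocyte markers below it on all 4 arrays. The spiked poly-A controls were lower on the MPA array for 23 of 24 probe sets, with a median difference of -0.42, while the median of the hybridisation spike-ins was 0.01. Background probes rich in G and C were higher with MPA for 6 of 6 sets, by a median of 0.34. The part of these offsets in the gene differences was not tested. The deposited signals had been processed with RMA, which normally scales arrays to each other, so a change in total mRNA per cell may not show, and in a bulk culture fewer cells expressing a gene and less RNA in each cell cannot be told apart.

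MPA and guanosine differed by 2-fold or more for 340 genes, and for 330 of them the control was nearer to guanosine than to MPA. At 2-fold, 188 genes (1.72% of those compared) were higher with MPA and 152 (1.39%) were lower. At 1.5-fold the counts were 569 higher (5.19%) and 850 lower (7.76%), while the median difference of all genes was 0 and the median absolute difference 0.23. The 188 higher genes had a median difference of 1.32 from guanosine, made up of 1.29 for MPA minus control and -0.07 for guanosine minus control. For the 152 lower genes the medians were -1.16 against guanosine, -1.12 for MPA minus control and 0.10 for guanosine minus control. No gene of either set was 2-fold away from the control on the guanosine array.

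The culture with both compounds stood with guanosine for these 340 genes. Its signal was nearer to guanosine alone than to MPA alone for 188 of the 188 higher genes and 152 of the 152 lower genes, with both compounds minus guanosine between -0.39 and 0.38 and between -0.32 and 0.28. The control lay nearer to guanosine than to MPA for 184 of the higher and 146 of the lower genes. The 340 genes were picked by the difference between MPA and guanosine itself. How often either array was nearer to guanosine over all genes compared was not counted. The control lay between the arrays of the single compounds, at any distance, for 114 of the 188 (60.6%) and 102 of the 152 (67.1%), against 47.2% of all genes compared. For 41 of the higher and 27 of the lower genes the dimmer array was below the floor, and for these the fold is given as a lower bound, the brighter signal over the floor. Counts at 1.5-fold and 2-fold, of all genes and of the lists, use the measured signals. They include genes whose lower bound falls short of that fold.

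**Figure D1:**
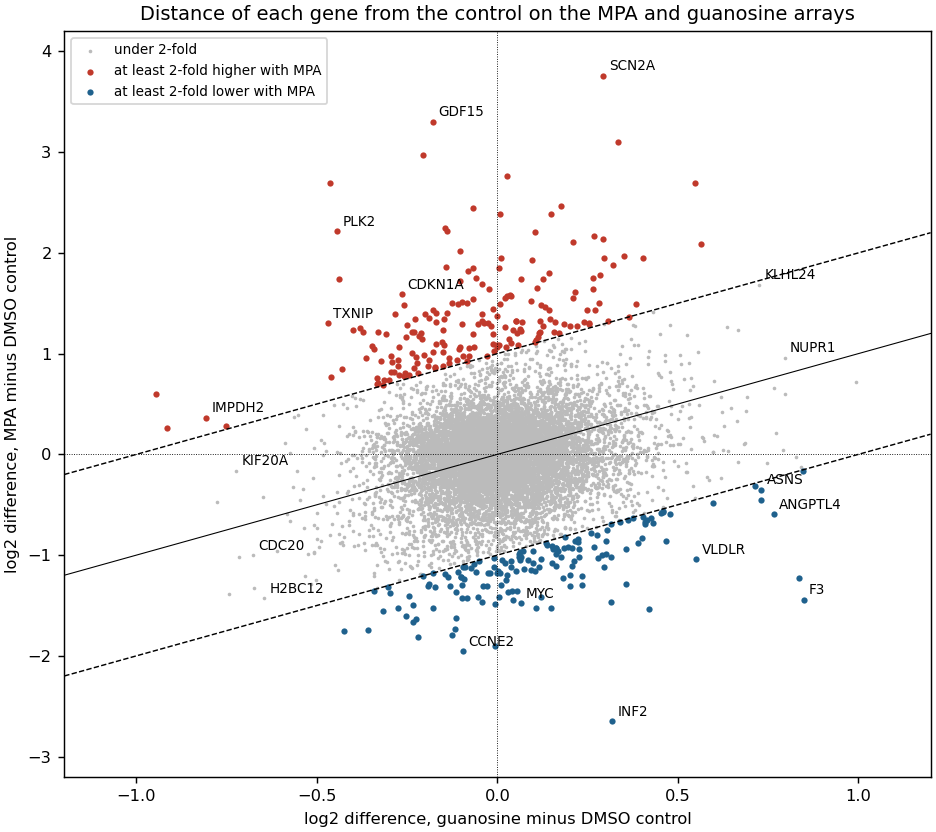
Each point is 1 of the 10953 genes compared. The horizontal axis is guanosine minus DMSO control and the vertical axis MPA minus DMSO control, both as log2 differences between single arrays and on different scales. Dashed lines mark a 2-fold difference between MPA and guanosine. The 188 genes above the upper line and the 152 below the lower line spread along the vertical axis, with INF2 at -2.65 and GDF15 at 3.30, and stay between -0.95 and 0.85 along the horizontal one. Genes with an array below the floor, such as SCN2A at the top, are plotted at their measured values, which give no exact distance. IMPDH2 lies on the left at -0.81 and F3 on the right at 0.85.

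Among the genes furthest above guanosine with MPA were GDF15, TP53I3, GDF5 and TP53INP1. GDF15, a stress cytokine of the TGF-beta family, had 3917 with MPA, 350.5 with guanosine, 363 with both compounds and 397 in the control, a difference of 3.48 or 11.2-fold. The MPA array alone was high, and the other arrays lay within a narrow band. 1 of the other 3 probe sets of GDF15 read 0.03 in place of 3.02 and 3.47. GDF5, another ligand of that family, had 1309.8 with MPA, 147 with guanosine, 154 with both compounds and 202 in the control, 8.94-fold higher with MPA than with guanosine. TP53I3, a quinone oxidoreductase induced by p53, stood at 2071 with MPA, 229 with guanosine, 240.1 with both compounds and 264 in the control. That is 9.04-fold. TP53INP1, which acts in autophagy and cell death downstream of p53, had 2254 with MPA, 332 with guanosine, 340.2 with both compounds and 263 in the control, a 6.79-fold difference that its other probe set gave as 0.30 in log2.

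The remaining genes at this end were mixed in function. PLK2 and SPATA18 are in the list of p53 targets described below, as are GDF15, TP53I3 and TP53INP1. PLK2, a polo-like kinase, had 1218 with MPA, 193 with guanosine, 192 with both compounds and 263 in the control, or 6.30-fold. SESN1, a sestrin that restrains mTORC1, had 1140.2 with MPA, 233 with guanosine, 226 with both compounds and 206 in the control, or 4.88-fold. RRAD, a small GTPase of the RGK group, had 2488 with MPA, 436 with guanosine, 466 with both compounds and 457 in the control, or 5.70-fold. The MPA array was the high one in each, and for PLK2 the control lay somewhat above guanosine. TNFSF9, a TNF family ligand that costimulates T cells, was 5.20-fold higher, with signals of 665 with MPA and 128 with guanosine, and SUGCT, a glutarate CoA-transferase of mitochondria, 6.67-fold, with signals of 1038 with MPA and 156 with guanosine. SPATA18, which acts in mitochondrial quality control, had a signal of 289 with MPA and was below the floor on the guanosine and control arrays, so that it was at least 4.59-fold higher. The sodium channel gene SCN2A was at least 4.48-fold higher, with 282 on the MPA array and signals below the floor on the other 3 arrays. CSMD3 was as dim there and reached 77.1 with MPA, at least 1.22-fold.

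**Figure D2:**
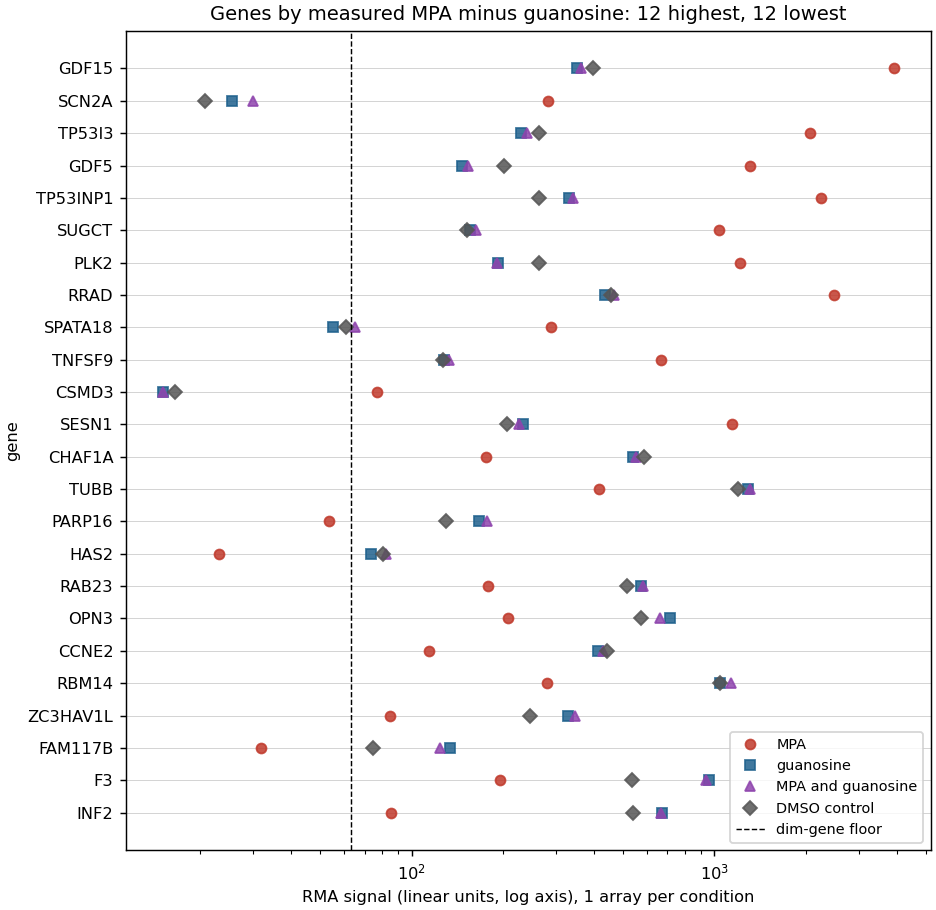
Signal of the 12 highest and 12 lowest genes by measured difference between MPA and guanosine, on a log axis, with 1 point for each of the 4 arrays. The dashed line is the dim-gene floor of 63.0, and genes with a point left of it (SCN2A, SPATA18, CSMD3, PARP16, HAS2, FAM117B) have only a lower bound for their fold, so their rank is not exact. Red MPA points stand alone, to the right for GDF15 to SESN1 and to the left for CHAF1A to INF2, while the guanosine, combined and control points fall close together, with F3 and FAM117B, whose control point lies between, as the clearest departures.

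Among targets of p53 that act in arrest and feedback, 34 of the 35 on the array were compared and 33 were higher with MPA than with guanosine. Of the 34, 27 (79.4%) passed 1.5-fold on the higher side, against 5.19% of all genes compared. At 2-fold 22 passed, and none was 1.5-fold lower. The list's median difference was 1.17, with 1.23 for MPA minus control and 0.00 for guanosine minus control. CDKN1A, the cyclin-dependent kinase inhibitor p21, had 4961 with MPA, 1373 with guanosine, 1412 with both compounds and 1649 in the control, 3.61-fold higher with MPA than with guanosine. MDM2, the ubiquitin ligase of p53, had 446 with MPA, 224 with guanosine, 223 with both compounds and 205 in the control, which is 0.99 in log2. For both genes the MPA array was the high one. The list was not uniform: PERP stood at 0.12 (-0.0169 by the median of its probe sets), SFN at 0.09 and CPT1C at -0.03. One unit of the p53 response element, which p53 binds as a repeat, was found by exact match in the promoter window (250 bases before to 50 after the start, either strand) of 7 of 28 list members with a window (25.0%), against 8.06% of all genes with one. The share was 14.6% among genes at least 2-fold higher with MPA and 3.82% among those at least 2-fold lower. The 7 members with a match had a median difference of 1.92 and the 21 without one 1.09.

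The lower end was mixed in function, with genes of the cytoskeleton, the cell surface, the cell cycle and chromatin. INF2, a formin that builds actin filaments, had 85.8 with MPA, 670.1 with guanosine, 666 with both compounds and 538 in the control, 7.81-fold higher with guanosine. Its other probe sets did not all follow and read -1.26, -0.02 and 0.07. RBM14, an RNA-binding protein of paraspeckles, had 279.7 with MPA, 1039.7 with guanosine, 1131 with both compounds and 1045 in the control, and its second probe set gave -1.13. TUBB, a beta tubulin, had 417 with MPA, 1291 with guanosine, 1315 with both compounds and 1199 in the control. In each of these 3 genes the MPA array was the low one and the guanosine and combined arrays lay close together.

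Some members of this group also showed a control below guanosine. OPN3, an opsin expressed outside the eye, had 208 with MPA, 714 with guanosine, 661 with both compounds and 574 in the control. RAB23, a small GTPase that restrains Hedgehog signalling, had 179 with MPA, 571 with guanosine, 580.3 with both compounds and 515 in the control. ZC3HAV1L, a gene related to a zinc finger antiviral protein, had 85.0 with MPA, 329 with guanosine, 347 with both compounds and 246 in the control, a difference of -1.95. The control lay nearer to guanosine than to MPA in all 3. HAS2, a hyaluronan synthase, and PARP16, an ADP-ribosyltransferase of the endoplasmic reticulum, were below the floor with MPA and at least 1.17-fold and 2.65-fold higher with guanosine. MYC, a transcription factor of growth genes, had 284 with MPA, 827 with guanosine, 779 with both compounds and 791 in the control, 2.91-fold higher with guanosine than with MPA, and its control value lay next to the guanosine one.

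Genes of DNA replication were lower with MPA than with guanosine. All 46 listed genes were on the array and passed the floor, and 40 were lower with MPA. Of the 46, 31 (67.4%) were at least 1.5-fold lower, against 7.76% of all genes compared. At least 2-fold lower were 16, and 0 were 1.5-fold higher. The median was -0.83, with -0.98 for MPA minus control and -0.13 for guanosine minus control, and the control lay above both arrays, at any distance, for 42 of the 46, against 26.4% of all genes compared. CCNE2, a cyclin that drives entry into S phase, had 114 with MPA, 413 with guanosine, 429 with both compounds and 441 in the control, 3.63-fold higher with guanosine. CHAF1A, the large subunit of the chromatin assembly factor that follows the replication fork, had 176 with MPA, 540.0 with guanosine, 553 with both compounds and 585 in the control, or 3.07-fold. MCM6, a subunit of the replicative helicase, had 739 with MPA, 1981 with guanosine, 1830.2 with both compounds and 2039 in the control, or 2.68-fold. The highest members were PCNA, the sliding clamp, at 0.22, and LIG1, the ligase of lagging strand fragments, at 0.06.

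Many of these genes match, next to their starts, the binding sequence of E2F, the factor family that switches on S phase genes. A window of 250 bases before to 50 bases after the start was searched on both strands for exact matches to TTTCCCGC, TTTGGCGC or TTTCGCGC, none of which contains another motif searched here. At least 1 match was found for 23 of the 39 replication genes with a window (59.0%), against 3.30% of all 27305 genes with one and 5.60% of the genes compared. Among the genes at least 2-fold lower with MPA the share was 14.5% (19 of 131), and among those at least 2-fold higher 2.65% (4 of 151). UHRF1, which carries DNA methylation through replication, had 399.9 with MPA, 1202 with guanosine, 1245 with both compounds and 1401 in the control. GINS2, a subunit of the helicase complex at the fork, had 200.01 with MPA, 538 with guanosine, 571 with both compounds and 633 in the control. Both were low with MPA alone. Their windows are given here to show how near the start of transcription the match, in capitals, lies. It begins 14 bases before the annotated start in UHRF1 (1 of its 3 windows) and 31 bases before it in GINS2. Sequences are from RefSeq, GRCh38.p14, 5′ to 3′ along the gene's strand, chr19:4909251-4909550 on the plus strand for UHRF1 and chr16:85688905-85689204 on the minus strand for GINS2.
UHRF1: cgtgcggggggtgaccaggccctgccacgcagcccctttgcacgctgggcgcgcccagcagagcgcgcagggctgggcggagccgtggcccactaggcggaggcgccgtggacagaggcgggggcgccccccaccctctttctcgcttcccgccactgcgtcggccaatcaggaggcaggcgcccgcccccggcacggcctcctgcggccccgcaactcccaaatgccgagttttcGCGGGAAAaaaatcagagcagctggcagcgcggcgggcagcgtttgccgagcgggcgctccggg
GINS2: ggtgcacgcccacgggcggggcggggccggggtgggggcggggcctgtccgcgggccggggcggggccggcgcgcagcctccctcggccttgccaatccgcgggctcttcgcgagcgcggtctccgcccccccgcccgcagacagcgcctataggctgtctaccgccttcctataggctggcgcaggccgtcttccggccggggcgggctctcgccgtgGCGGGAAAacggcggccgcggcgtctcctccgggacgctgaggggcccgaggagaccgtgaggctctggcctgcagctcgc
Within the replication list, the genes with a match had a median difference of -0.83 and the 16 without one -0.79.

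Genes of G2 and mitosis showed another arrangement, in which guanosine lay below the control as well. Of 41 on the array 40 were compared, and 34 were lower with MPA than with guanosine. The median was -0.35, with -0.73 for MPA minus control and -0.36 for guanosine minus control. Only 7 (17.5%) were 1.5-fold lower, against 7.76% of all genes compared, and none 2-fold lower. The control was above both arrays by at least 0.32 in log2 for 25 of the 40, against 105 of all genes compared (0.959%). BUB1B, a kinase of the spindle checkpoint, had 287 with MPA, 573 with guanosine, 568 with both compounds and 722 in the control. KIF23, a kinesin needed to divide the cell body, had 349 with MPA, 623 with guanosine, 606 with both compounds and 788 in the control. CDC20, the activator of the anaphase-promoting complex, had 1098 with MPA, 1377 with guanosine, 1428 with both compounds and 2201 in the control. Each of these ran in the order control, then guanosine and the combined treatment, then MPA at the bottom. SPC25, a kinetochore protein, ran the same way, with signals of 423 with MPA, 521 with guanosine, 547 with both compounds and 855 in the control. KIF20A, a kinesin of the central spindle, was furthest on the other side at 0.56: it had 677 with MPA, 458 with guanosine, 457 with both compounds and 757 in the control, which put guanosine and the combined array at the bottom and MPA near the control.

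The promoter element that goes with cell cycle genes of this phase is the CHR, read here as TTTGAA or TTTAAA on either strand. It was present in the window of 28 of 33 genes of the list (84.8%), against 27.9% of all genes and 21.7% of the genes compared. The CCAAT box, which often lies upstream of it, was in 26 of the 33 (78.8%), against 39.7% of all genes. Genes at least 2-fold lower and higher with MPA held a CHR match in 26.7% and 28.5% of windows. Within the list, the 28 genes with a match had a median difference of -0.35 and the 5 without one -0.44. The windows of BUB1B (chr15:40160819-40161118, plus strand) and KIF23 (chr15:69414099-69414398, plus strand) are printed with the matches in capitals, 23 bases before the start in BUB1B and 211 and 55 bases before it in KIF23.
BUB1B: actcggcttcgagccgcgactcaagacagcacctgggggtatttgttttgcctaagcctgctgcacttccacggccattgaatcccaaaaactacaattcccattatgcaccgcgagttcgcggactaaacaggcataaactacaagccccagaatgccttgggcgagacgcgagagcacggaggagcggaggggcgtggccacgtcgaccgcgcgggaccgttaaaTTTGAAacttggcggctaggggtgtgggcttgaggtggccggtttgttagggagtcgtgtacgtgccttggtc
KIF23: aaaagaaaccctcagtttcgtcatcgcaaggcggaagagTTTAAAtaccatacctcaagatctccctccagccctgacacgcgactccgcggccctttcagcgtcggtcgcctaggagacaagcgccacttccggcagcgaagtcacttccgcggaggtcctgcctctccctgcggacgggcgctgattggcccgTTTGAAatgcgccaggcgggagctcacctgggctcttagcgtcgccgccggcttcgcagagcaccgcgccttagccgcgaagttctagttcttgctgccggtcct

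Ribosome biogenesis factors, the proteins that process and assemble ribosomal RNA in the nucleolus, were mostly lower with MPA. Of 63 on the array 61 were compared and 53 were lower, 17 (27.9%) by at least 1.5-fold, against 7.76% of all genes compared. None was 1.5-fold higher. The median was -0.39, with -0.47 for MPA minus control and -0.07 for guanosine minus control. NOLC1, a chaperone between the nucleolus and Cajal bodies, had 1452 with MPA, 2822 with guanosine, 2791 with both compounds and 2831 in the control, or 1.94-fold higher with guanosine. WDR75, a factor of the small subunit processome, had 178 with MPA, 343 with guanosine, 322 with both compounds and 322 in the control. URB2, whose yeast relative acts on the large subunit, was below the floor with MPA and at least 2.08-fold higher with guanosine. The abundant nucleolar proteins differed less, with nucleolin (NCL) at -0.46 and nucleophosmin (NPM1) at -0.22. RPF1, a factor of the large subunit, stood on the other side at 0.37. The list's median was close in size to the poly-A spike-in offset between these arrays (-0.42), whose part in it was not tested.

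The E-box CACGTG, bound by MYC with its partner MAX, was in the window of 22 of 50 ribosome biogenesis genes (44.0%), against 8.77% of all genes and 12.9% of the genes compared. In the genes at least 2-fold lower with MPA the share was 16.0%. BYSL, a factor of the small subunit, had 66.5 with MPA, 124 with guanosine, 119.5 with both compounds and 141 in the control. MRTO4, which acts on the ribosomal stalk of the large subunit, had 666 with MPA, 1113 with guanosine, 1146 with both compounds and 1152 in the control. Their windows, chr6:41921249-41921548 and chr1:19251555-19251854, both on the plus strand, carry the box in capitals 28 and 14 bases after the annotated start.
BYSL: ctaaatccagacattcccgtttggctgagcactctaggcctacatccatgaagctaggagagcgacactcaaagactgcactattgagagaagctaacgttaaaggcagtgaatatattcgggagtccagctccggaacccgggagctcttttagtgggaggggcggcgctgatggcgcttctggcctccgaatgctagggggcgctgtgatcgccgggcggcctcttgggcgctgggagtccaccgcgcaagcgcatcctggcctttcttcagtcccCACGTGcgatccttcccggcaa
MRTO4: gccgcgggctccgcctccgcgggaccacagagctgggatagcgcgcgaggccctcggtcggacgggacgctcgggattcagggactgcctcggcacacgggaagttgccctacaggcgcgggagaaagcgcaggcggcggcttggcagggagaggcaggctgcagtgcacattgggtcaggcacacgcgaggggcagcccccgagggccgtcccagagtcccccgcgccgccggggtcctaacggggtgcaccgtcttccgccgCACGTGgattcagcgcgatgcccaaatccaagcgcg
Members of the list with a box had a median difference of -0.32 and those without one -0.43.

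The machinery of RNA polymerase I, which transcribes the ribosomal RNA precursor, lay on the same side. All 20 genes were compared and 17 were lower with MPA, with a median of -0.33. At least 1.5-fold lower were 5 of the 20 (25.0%), against 7.76% of all genes compared. POLR1E, a subunit specific to this polymerase, had 67.5 with MPA, 149 with guanosine, 149 with both compounds and 159 in the control. POLR1A, its largest subunit, had 163 with MPA, 260.4 with guanosine, 256 with both compounds and 244 in the control, a difference of -0.68. Both were low on the MPA array and level on the other 3. POLR1B, the second largest subunit, stood at only -0.13, the initiation factor RRN3 at -0.44 with other probe sets at -0.15 and 0.02, and the promoter factor UBTF at -0.23. Of the genes of RNA polymerase III, the enzyme for transfer RNA and the smallest ribosomal RNA, 24 of 25 genes were compared and 16 were lower, with a median of -0.07 that gives no direction. POLR3G, the variant subunit of growing and embryonic cells, was among its lowest members at -0.66. Cytosolic ribosomal protein genes gave no direction: 56 of 62 were compared, the median was -0.01 and 1 of them, RPL27A, passed 1.5-fold by its measured signals. RPL27A was below the floor with MPA, so its lower bound, 1.47-fold higher with guanosine, falls short of 1.5-fold.

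The target of MPA was among the few genes for which guanosine, not MPA, stood apart. IMPDH2, the IMP dehydrogenase isoform of dividing cells, had 9168 with MPA, 4067 with guanosine, 4228 with both compounds and 7120.4 in the control, 2.25-fold higher with MPA than with guanosine. The guanosine and combined arrays were low, MPA was somewhat above the control, and 68.9% of the log2 difference lay between guanosine and the control (-0.81) as against 0.36 for MPA minus control. Other probe sets of the gene gave differences of 1.30 to 1.42. IMPDH1, the other isoform, had 877 with MPA, 1148 with guanosine, 1207 with both compounds and 1130.3 in the control and was lower with MPA, although its other probe sets read -0.19 and 0.30. GMPS, which makes GMP from xanthosine monophosphate, had 1722 with MPA, 2423 with guanosine, 2280.4 with both compounds and 2689 in the control. HPRT1, the salvage enzyme for guanine, had 1984 with MPA, 2545 with guanosine, 2604 with both compounds and 2541 in the control. GMPS and HPRT1 were thus lower with MPA, at -0.49 and -0.36, with the control level with guanosine or above it. Of the 8 genes of guanine nucleotide synthesis and salvage on the array 6 were compared, 2 higher and 4 lower with MPA, and IMPDH2 was the 1 member past 1.5-fold.

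Genes of neighbouring nucleotide synthesis pathways were mostly lower with MPA, by small medians, with a few members further apart. In de novo purine and adenylate synthesis 13 of 13 genes were compared and 10 were lower, with a median of -0.18. At least 1.5-fold lower were 3 of the 13 (23.1%), against 7.76% of all genes compared. GART, which carries out several steps of purine ring assembly, had 359 with MPA, 644 with guanosine, 646 with both compounds and 626 in the control, and PAICS, the enzyme of the following steps, had 1111 with MPA, 1768 with guanosine, 1851 with both compounds and 1915 in the control. The other probe set of PAICS read only -0.12. AMPD3, which deaminates AMP to IMP, had 130.4 with MPA, 223 with guanosine, 223 with both compounds and 164 in the control, with the control between MPA and guanosine. Of 16 pyrimidine and deoxynucleotide genes 13 were lower and the median was -0.30, but only 1 passed 1.5-fold on the lower side and 1 on the higher side, 6.2% each, against 7.76% and 5.19% of all genes. CTPS2, which makes CTP from UTP, had 123 with MPA and 190.4 with guanosine. RRM2B, the ribonucleotide reductase subunit induced by p53, was furthest on the other side, with signals of 1716 with MPA, 726 with guanosine, 677 with both compounds and 715 in the control. Among nucleoside transporters and nucleotidases 11 of 14 were compared, 6 higher and 5 lower, with a median of 0.02. The main carrier of guanosine, SLC29A1, differed by -0.05, the lysosomal carrier SLC29A3 by 0.65 and the purine nucleobase transporter SLC43A3 by -0.87, with signals of 782 with MPA, 1431 with guanosine, 1504 with both compounds and 1383 in the control.

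For 95 genes MPA and guanosine lay on opposite sides of the control, each at least 0.32 away in log2. In 34 (0.31% of those compared) MPA was above and guanosine below, and in 61 (0.557%) guanosine was above and MPA below. The MPA, guanosine or control signal was below the floor for 8 of the 34 and 8 of the 61, and their order is then not exact. Members of the 34 had a median of 0.65 for MPA minus control and -0.39 for guanosine minus control, and 19 of them were 2-fold apart. Among the 61 the medians were -0.53 for MPA and 0.39 for guanosine, and 26 were 2-fold apart. The combined array was nearer to guanosine than to the control for 26 of the 34 and 58 of the 61. These genes were chosen for a guanosine signal apart from the control, so the counts follow largely from that choice. The share over all genes compared was not counted.

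With MPA above and guanosine below the control, TXNIP, a thioredoxin-binding protein that limits glucose uptake, was 1 of the 8 genes named by their distance from the control. It had 6228 with MPA, 1827 with guanosine, 1718 with both compounds and 2530.4 in the control, 3.41-fold higher with MPA, and its other probe sets gave 1.75 to 1.87. NRG1, a ligand of ERBB receptors, had 351.2 with MPA, 144 with guanosine, 138 with both compounds and 195 in the control, or 2.43-fold. ADCK1, a mitochondrial kinase-like protein, had 167 with MPA, 86.99 with guanosine, 101 with both compounds and 119 in the control. For TXNIP and NRG1 the combined array lay with guanosine, below the control, and for ADCK1 it lay between guanosine and the control. GDF5 and PLK2, described above, belong here too, with guanosine minus control of -0.46 and -0.44. PPP1R1C, an inhibitor of protein phosphatase 1, the kinase gene TESK2 and the small nucleolar RNA SNORA12 completed the 8 by their measured values. They were below the floor on the guanosine and control arrays, so the order of those arrays is not known for them and only their higher signal with MPA stands.

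With guanosine above and MPA below the control, F3 came first. F3 encodes tissue factor, which starts blood clotting, and had 197 with MPA, 962 with guanosine, 935 with both compounds and 534 in the control, 4.89-fold higher with guanosine than with MPA. Its parts were -1.44 for MPA minus control and 0.85 for guanosine minus control, and its other probe sets gave -2.25 and -0.95. DUSP6, a phosphatase that restrains ERK, had 932 with MPA, 2343 with guanosine, 2410.0 with both compounds and 1695 in the control, or 2.51-fold. VLDLR, a lipoprotein receptor, had 156 with MPA, 470.0 with guanosine, 455 with both compounds and 321 in the control, or 3.02-fold. In F3, DUSP6 and VLDLR the guanosine and combined arrays were the high pair, the control was in the middle and MPA was low. STK35, a kinase, and ZNF292, a zinc finger protein, had the same order, with signals of 225 with MPA and 472 with guanosine for STK35 and 273 with MPA and 557 with guanosine for ZNF292. FAM117B had 32.0 with MPA and 134 with guanosine, and its MPA signal was below the floor, so that guanosine was at least 2.12-fold higher.

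**Figure D3:**
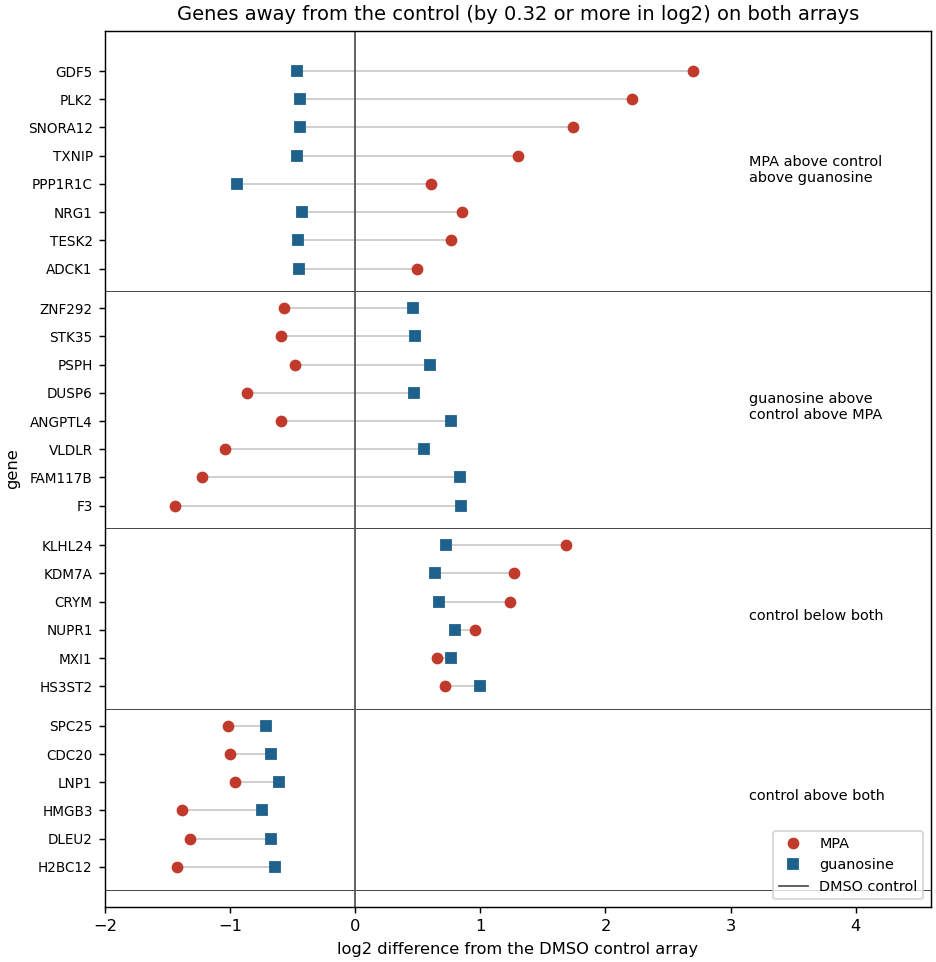
Log2 difference from the DMSO control array (the line at 0) for genes at least 0.32 from the control on both arrays, with MPA as red circles and guanosine as blue squares. The upper blocks hold the 8 genes with the most distant control in each opposite-sided set, the lower blocks 6 genes with the control below both arrays and 6 with the control above both. Points of PPP1R1C, TESK2, SNORA12, PSPH, FAM117B, KLHL24, KDM7A, HS3ST2 and LNP1 rest in part on signals below the floor. GDF5 spans 3.16 and F3 -2.29, while NUPR1 and MXI1 differ by 0.16 and -0.11 between the compounds although both lie away from the control.

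Genes of serine, asparagine and one-carbon metabolism were lower with MPA, by the probe sets kept, for all those compared, 10 of 11 on the array. MTHFD1L stood at -0.20, and its other probe sets read -0.20, -0.20 and 0.63. At least 1.5-fold lower were 3 of the 10 (30.0%), against 7.76% of all genes compared. The median was -0.37, with -0.37 for MPA minus control and 0.02 for guanosine minus control. ASNS, which makes asparagine, had 483 with MPA, 1021 with guanosine, 1011 with both compounds and 615 in the control, or 2.12-fold higher with guanosine. PSAT1, the aminotransferase of serine synthesis, had 968 with MPA, 1815 with guanosine, 1872 with both compounds and 1311 in the control, or 1.87-fold. The control lay between in both, and for ASNS 67.6% of the difference was on the guanosine side. PSPH, the last enzyme of serine synthesis, was below the floor with MPA and in the control and at least 1.30-fold higher with guanosine. PHGDH, the first enzyme, differed by -0.16. 3 of the 10 genes were among the 61 with guanosine above and MPA below the control (0.557% of all genes). PSPH was 1 of these 3 and 1 of the 3 at 1.5-fold by its measured signals only. The order of its MPA and control arrays is not known, since both were below the floor.

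The integrated stress response list, whose factor ATF4 acts on several of those genes, was divided. 22 of 24 were compared, 12 higher and 10 lower with MPA, with a median of 0.14. ATF4 had 2270.0 with MPA, 3931 with guanosine, 4006 with both compounds and 3026 in the control, a difference of -0.79 with the control between. DDIT3, which encodes the stress factor CHOP, went the other way, with signals of 569.7 with MPA, 196 with guanosine, 217 with both compounds and 234 in the control, or 2.90-fold higher with MPA. VLDLR, the lowest member, is described above, and DDIT4, an inhibitor of mTORC1, stood at -0.71 and STC2, a secreted glycoprotein, at -0.70. ATF3 and SESN2 were higher with MPA, by 0.94 and 0.94, and the other probe set of ATF3 read 0.41. The control lay between MPA and guanosine for 15 of the 22.

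Genes of hypoxia and glycolysis were the list in which guanosine, by its median, lay furthest above the control. Of 34 on the array 32 were compared and 23 were lower with MPA than with guanosine. At least 1.5-fold lower were 6 of the 32 (18.8%), against 7.76% of all genes compared. The median difference was -0.27, made of -0.04 for MPA minus control and 0.25 for guanosine minus control. ANGPTL4, a secreted inhibitor of lipoprotein lipase, had 152 with MPA, 391 with guanosine, 384 with both compounds and 230.2 in the control, or 2.57-fold higher with guanosine. INSIG2, a sterol-sensing brake on lipid synthesis, had 205 with MPA, 466 with guanosine, 454 with both compounds and 281 in the control, or 2.28-fold. PFKFB4, which sets the level of a glycolytic activator, had 753 with MPA, 1509 with guanosine, 1439 with both compounds and 1164 in the control. Its other probe set read -0.26. In all 3 the control lay between, with guanosine high and MPA low. EGLN1, the oxygen-sensing prolyl hydroxylase, stood at -0.88, ANKRD37 at -0.85, and PFKM, a phosphofructokinase, on the other side at 0.54. 4 of the 32 were among the 61 genes with guanosine above and MPA below the control (0.557% of all genes).

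Immediate early and ERK feedback genes, among which F3 and DUSP6 were listed, leaned the same way. 27 of 31 were compared and 19 were lower with MPA, and the list had a median of -0.26. At 1.5-fold or more 8 of the 27 (29.6%) were lower, against 7.76% of all genes compared. SPRY2, an inhibitor of receptor tyrosine kinase signals, had 534 with MPA, 1407 with guanosine, 1455 with both compounds and 1223 in the control, or 2.63-fold higher with guanosine. HBEGF, an EGF receptor ligand, had 187 with MPA, 468 with guanosine, 542 with both compounds and 628 in the control, with the control above both. EGR1, an immediate early factor, was higher with MPA, by 0.71.

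In 246 genes the control lay outside both compounds on the same side, at least 0.32 in log2 from each. It was below both for 141 genes (1.29%) and above both for 105 (0.959%), and 1 of these signals was below the floor for 19 of the 141 and 3 of the 105. In the first set the medians were 0.60 for MPA minus control and 0.40 for guanosine minus control, so that the compounds differed by a median of only 0.17, and 7 of the 141 were 2-fold apart. NUPR1, a stress-induced chromatin protein, had 995 with MPA, 888 with guanosine, 933 with both compounds and 512 in the control. MXI1, an antagonist of MYC, had 817 with MPA, 883 with guanosine, 844 with both compounds and 519 in the control. CRYM, a thyroid hormone-binding crystallin, had 2451 with MPA, 1653 with guanosine, 1753 with both compounds and 1042 in the control. NUPR1 and MXI1 were level between the compounds and CRYM was higher with MPA, and the control was the lowest array for all 3. KLHL24, an adaptor for protein degradation, had 178 with MPA, 91.5 with guanosine and 89.3 with both compounds and was below the floor in the control. KDM7A, a histone demethylase, had 112 with MPA and 72.4 with guanosine, and HS3ST2, which sulphates heparan chains, 80.6 with MPA and 97.8 with guanosine, again with dim controls. The median of its probe sets puts HS3ST2 0.17 higher with MPA.

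With the control above both, the medians were -0.70 for MPA minus control and -0.40 for guanosine minus control, and the compounds differed by a median of -0.28. Besides SPC25 and CDC20, the rule named HMGB3, a chromatin protein, with signals of 78.4 with MPA, 122 with guanosine, 118 with both compounds and 205 in the control. H2BC12, a histone H2B gene, had 642 with MPA, 1105 with guanosine, 1098 with both compounds and 1729 in the control. The long non-coding RNA DLEU2 had 127 with MPA, 199.6 with guanosine, 239 with both compounds and 318 in the control, and LNP1 was below the floor with MPA. The combined array was nearer to guanosine than to the control for 96 of these 105 genes and for 138 of the 141 with the control below both. These genes were chosen for a control that lay apart from guanosine, so the counts follow largely from that choice. Both cultures had received guanosine. With a single control array, a shift of that array and a shift in the treated cultures cannot be told apart.

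The direct comparison reached 2-fold for 91 genes that neither compound alone placed 2-fold from the control, 41 higher and 50 lower with MPA. ANGPTL4 (-1.36) and DUSP6 (-1.33) were the lowest of them and PCDH18, a protocadherin (1.32), and NRG1 (1.28) the highest of those with all 4 signals above the floor. The MPA, guanosine or control signal was below the floor for 10 of the 41 and 9 of the 50, PPP1R1C among them, and for these the measured 2-fold is not exact. IMPDH2, ASNS and INSIG2 were also in this set of 91. In the other direction, 42 genes higher and 54 genes lower by 2-fold with MPA than in the control were not among the 2-fold genes against guanosine. The 54 may include genes below the floor with both MPA and guanosine, which were not compared.

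In 10 of the 340 genes at 2-fold the control was nearer to MPA, and these are named after their values were seen. The highest share of the log2 difference between guanosine and control, 84.0%, belonged to CFAP96, a cilia-associated gene, with signals of 76.2 with MPA, 153 with guanosine, 151 with both compounds and 85.2 in the control. MAP3K7CL followed, with signals of 272 with MPA, 120.0 with guanosine, 131 with both compounds and 226 in the control, and 77.7% on the guanosine side. In both the guanosine and combined arrays stood apart from MPA and control, which lay close together. BAG1, a co-chaperone of HSP70 (69.1%), IMPDH2 (68.9%), ASNS (67.6%), INSIG2 (61.5%) and ANGPTL4 (56.3%) were also above the floor on all arrays. ZNF425, PPP1R1C and PSPH were the other 3, and since 1 or more of their arrays lay below the floor, no share is given for them. Of these, IMPDH2, MAP3K7CL, PPP1R1C and ZNF425 were lower with guanosine, and the other 6 were higher with guanosine.

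Splicing factors were a further group that was lower with MPA. All 31 SR and hnRNP genes were compared and 28 were lower, 11 (35.5%) by 1.5-fold or more, and the list had a median of -0.48 and a guanosine minus control median of -0.03. SRSF2, an SR protein that promotes exon inclusion, had 783 with MPA, 2094 with guanosine, 1979 with both compounds and 2087 in the control, or 2.68-fold higher with guanosine. HNRNPL stood on the other side at 0.31. Of 20 G1 cyclins, kinases and inhibitors compared 18 were lower with MPA, 9 (45.0%) by at least 1.5-fold. This list overlaps that of DNA replication, and CCNE2 was the lowest member of both. LIN9 is counted by its measured signals. It was below the floor with MPA and at least 1.03-fold higher with guanosine. CCNE1, the other cyclin of the E type, had 198 with MPA, 442 with guanosine, 468 with both compounds and 448 in the control, and CDKN1A was the 1 member past 1.5-fold on the other side. Of 19 aminoacyl-tRNA synthetases 18 were lower, but 1 passed 1.5-fold (5.3%), and the median was -0.25. Of 22 chaperones 19 were lower with a median of -0.26, and 2 passed 1.5-fold (9.1%), near the 7.76% of all genes.

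The lists that leaned the other way did so by less than the p53 targets. Inflammatory and NF-kB targets had a median of 0.38, with 5 of 19 (26.3%) at least 1.5-fold higher against 5.19% of all genes. Interferon-stimulated genes had 0.33 with 7 of 25, and NRF2 and redox genes 0.33 with 6 of 21 (28.6%). IL24 and MX2 are counted here by their measured signals. Only their MPA signals were above the floor, and they were at least 1.13-fold and 1.04-fold higher. TRIM22, an interferon-induced ubiquitin ligase that is also a target of p53, had 2278 with MPA, 594 with guanosine, 599.7 with both compounds and 589.9 in the control, or 3.84-fold, and was the 1 interferon-stimulated gene at 2-fold. AKR1B10, an aldo-keto reductase induced by NRF2, had 1394 with MPA, 478 with guanosine, 496 with both compounds and 546 in the control, or 2.91-fold. HMOX1, heme oxygenase, was lower with MPA at -0.82, so the NRF2 list was divided. Extracellular matrix and TGF-beta targets had a median of 0.25 and 4 of 29 (13.8%) at 1.5-fold higher, among them smooth muscle actin ACTA2, with signals of 1476 with MPA, 581 with guanosine, 583 with both compounds and 503 in the control. Lysosome and autophagy genes were higher in 22 of 25, with a median of 0.20, and 2 (8.0%) passed 1.5-fold, the sialidase NEU1, with signals of 1064 with MPA, 397 with guanosine, 380.1 with both compounds and 473 in the control, and GPNMB, a membrane glycoprotein of lysosomes, with signals of 971 with MPA, 476 with guanosine, 473 with both compounds and 458 in the control.

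**Figure D4:**
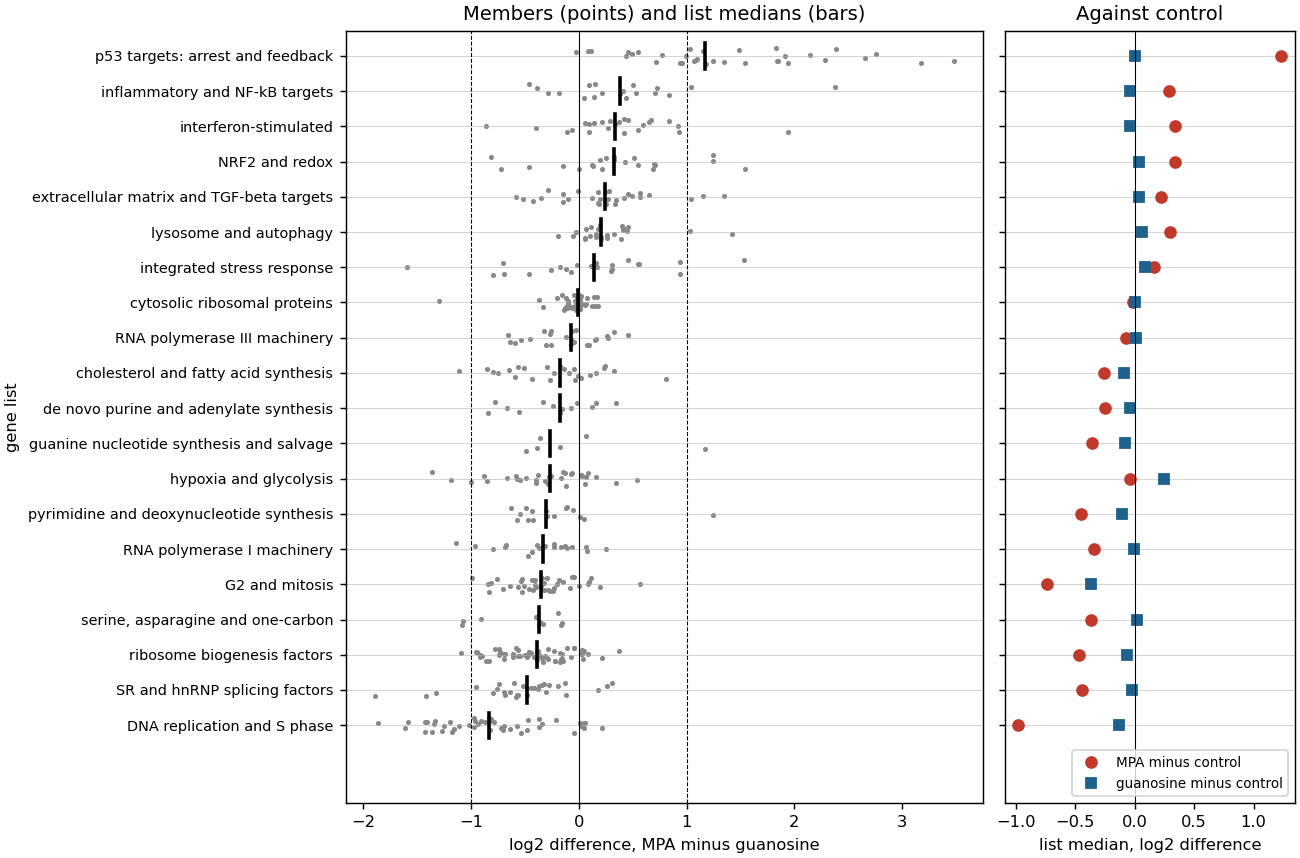
In the left panel each point is a member's log2 difference, MPA minus guanosine, and the bar is the median of its list, for 20 lists. Dashed lines mark 2-fold. The right panel gives each list's median for MPA minus control (red circles) and guanosine minus control (blue squares). Medians run between -0.83 for DNA replication and 1.17 for p53 targets. The guanosine squares lie near 0 apart from G2 and mitosis at -0.36 and hypoxia and glycolysis at 0.25.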

How the data were processed

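RNA of U87MG cells was measured on PrimeView arrays, 1 array for each of 4 conditions. Per the labels, the deposited intensities are signals that the authors had computed with RMA, and they are on a linear scale. Settings of that RMA run: not given in the sources used here. The log2 of each intensity was taken. Of 49395 probe sets, 102 controls were kept apart, 44994 had 1 gene symbol in the platform annotation, 1832 had several and 2569 were unlisted; of the 44994, 44967 carried a current RefSeq symbol. A gene was compared when its MPA or guanosine signal was at or above the median of all non-control values (63.0). With 1 array a side no test was run, and precision is limited by how few arrays there are. A few genes are not reported here. Named genes were the 12 highest and 12 lowest at 2-fold for which the median of the other probe sets had the same sign, 8 genes in each opposite-sided set, 6 on each side with the control outside both, the extreme members of each of 34 lists, and a few genes of the pathway. The genes and lists were chosen with earlier results of these data known. Promoter windows came from RefSeq (GRCh38.p14). The counting was tested on simulated data. Alternatives were no floor, a higher floor, other choices of probe set and cyclic loess (limma 3.58.1, R 4.3.3). Python 3.11.15 with pandas 2.3.3 and matplotlib 3.10.9 was used for the rest.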

Additional observations from a re-analysis of the deposited data

How the results depend on the processing

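No paired analysis was possible because each condition had 1 array. The alternatives were no floor on dim genes (18132 genes compared), a floor at the 75th percentile of all values (6495), the median over each gene's probe sets (9124), probe sets prone to cross-hybridisation treated like the others (11206), only genes whose probe sets had 1 direction (8995), and cyclic loess (10851), which set the median of all genes at 0.04. Of 48 counts of genes, 40 stayed within 1.5 times the reported count. The other 8 were, at the 75th percentile floor, 121 genes 2-fold higher and 99 lower with MPA, 18 genes with MPA above and guanosine below the control and 35 the other way, 82 with the control below both, and 23 higher and 28 lower at 2-fold here but not against the control; and, with the median of probe sets, 90 with the control below both. The higher floor tests fewer genes. None of 202 list medians changed sign where it was at least 0.1 from 0, and 29 moved by more than 0.1. Of 1304 values of named genes 98 moved by 0.1 or more, and 13 changed sign where the reported value was at least 0.1 from 0. Changes of sign in values nearer to 0 were not counted as such. Of the 13, with the median of probe sets HNRNPA3 gave -0.19, PKM -0.0745, RPL10 -0.049, SYT1 -0.0748, PERP -0.0169, LAMP2 0.11, H2AZ2 0.24, HS3ST2 0.17, SLC7A11 0.28 and MARS1 0.0251, and with cross-hybridising probe sets included SRSF5 gave -0.0053, PFAS -0.53 and H2AZ2 0.22. The cause was not tested. With 1 array a condition, the spread between cultures is unknown for every value.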

Other observations

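The remaining lists had medians nearer to 0. Of 25 genes of cholesterol and fatty acid synthesis compared, 18 were lower with MPA than with guanosine, with a median of -0.17. Past 1.5-fold lower were 6 of the 25 (24.0%), against 7.76% of all genes compared. ELOVL6, which lengthens fatty acids, had 176 with MPA, 381 with guanosine, 395 with both compounds and 365 in the control, and TM7SF2, a sterol reductase, was higher with MPA by 0.81. Genes of oxidative phosphorylation had a median of 0.06, and none of the 22 compared passed 1.5-fold in either direction. The MYC network showed no direction, with 5 higher, 6 lower and a median of -0.04 over 11 genes. Of 10 histone genes with polyadenylated transcripts 5 were higher and 5 lower, with a median of -0.06. H2BC21, a histone H2B gene, was below the floor on the guanosine, combined and control arrays and reached 182 with MPA, at least 2.90-fold higher.

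Markers of other cell types were mostly low, with a few brighter members. The astrocyte markers summed to 5936 with MPA, 5255 with guanosine, 5322 with both compounds and 4921 in the control, and the median difference of the 5 compared was 0.16. The gap junction gene GJA1 was the largest part of that sum, at 5069 with MPA. Markers of neurons and oligodendrocytes summed to 4280.4 with MPA, 3478 with guanosine, 3529 with both compounds and 3666 in the control. Leukocyte markers summed to 2169.5 with MPA and 1606 with guanosine, of which the lysosomal protein CD68 gave 1871 with MPA and 1342 with guanosine, and PTPRC, the common leukocyte antigen, was below the floor on all arrays. Endothelial and pericyte markers summed to 764 with MPA and 784 with guanosine, and epithelial markers to 642 with MPA and 528 with guanosine. The endothelial factor ERG and the epithelial adhesion protein EPCAM were at least 1.96-fold and 1.62-fold higher with MPA. The other probe set of ERG gave 0.44. Of the 6 endothelial and pericyte genes compared 2 were higher and 4 lower with MPA, with a median of -0.12. For 2 control probe sets of 28S ribosomal RNA, middle and 5′, the medians were -0.60 for MPA minus control and -0.86 for guanosine minus control. Both of these probe sets were higher with MPA than with guanosine, by a median of 0.26. What such probe sets say about ribosomal RNA levels in the cells was not tested. The 3′ minus 5′ difference of ACTB, a measure of how complete the labelled copies are, was 1.72 with MPA, 1.77 with guanosine, 1.89 with both compounds and 1.82 in the control.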
